A study of Mus musculus with 18 samples.

Results

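The 10 genes described here encode the core of major histocompatibility complex (MHC) class I antigen presentation in the mouse: B2m, H2-K1, H2-D1, Tap1, Tap2, Tapbp, Psmb8, Psmb9, Psmb10 and Nlrc5. They were chosen by name, with earlier results of these data known, and all 10 were found among the 55487 gene rows of the deposited count table. All 10 also passed the low-count filter, which left 13469 genes for testing. The cells were im-TEC, conditionally immortalized mouse tubular epithelial cells, read with QuantSeq, which sequences each polyadenylated transcript near its 3′ end. At 48 h there were 6 groups of 3 libraries. Cells were left untreated or received 10 ng/mL of transforming growth factor β (TGFβ), 1 mM of nicotinamide (NAM) or 0.5 mM of S-adenosyl methionine (SAM), and in the last 2 groups TGFβ was combined with either supplement at these doses. All groups carry the SV40 large T antigen, which growth at 33 °C with interferon-γ sustains. Interferon-γ was left out for 7 days at 37 °C before seeding, so the cells of every group had been exposed to it earlier. The series concerns nicotinamide N-methyltransferase, the enzyme that methylates NAM with SAM, in tubular senescence and fibrosis. The labels name neither a mouse strain nor an MHC haplotype. Nothing in them says that the libraries of a group came from separate cultures, so p-values measure the spread between these libraries, which may be technical.

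Class I molecules carry peptides from inside the cell to its surface, where CD8 T cells read them. Proteins are cut by the proteasome, and the immunoproteasome subunits Psmb8, Psmb9 and Psmb10 take the place of the constitutive catalytic subunits Psmb5, Psmb6 and Psmb7. Tap1 and Tap2 form the pump that moves peptides into the endoplasmic reticulum, and Tapbp (tapasin) tethers that pump to empty class I molecules. Each such molecule pairs a heavy chain, here H2-K1 or H2-D1, with the light chain encoded by B2m. Nlrc5 is a transactivator of class I genes, and interferons raise most of the pathway through STAT and IRF factors. Tubular epithelial cells are known to carry class I and to raise it in inflammation.

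In the mouse annotation GRCm38 (GENCODE M21), 4 of the genes sit side by side on chromosome 17: Psmb9 (chr17:34181987-34187764, minus strand), Tap1 (chr17:34187553-34197225, plus), Psmb8 (chr17:34197721-34201454, plus) and Tap2 (chr17:34203527-34216321, plus). Tapbp (chr17:33915899-33929292, plus) and H2-K1 (chr17:33996017-34000347, minus) lie at lower coordinates, and H2-D1 (chr17:35262730-35267499, plus) at higher ones. B2m is on chromosome 2 (chr2:122147686-122153083, plus), and Psmb10 (chr8:105935735-105938444, minus) and Nlrc5 (chr8:94434356-94527272, plus) are on chromosome 8. The exons of Tap1 and Psmb9 share 212 bases on opposite strands, at the 5′ ends of both genes. Exons of Tapbp share 149 bases with Zbtb22 on the same strand and 904 with the antisense gene Gm19412. Exons of Psmb8 share 498 bases with the antisense gene Gm20496, and those of Tap2 share 165 with Gm20496 and 533 with Gm15821. Exons of Nlrc5 share 78 bases with 9330175E14Rik on the opposite strand. The strand setting of the counting is not stated, so reads in these stretches are uncertain. In the last 300 bases of the longest coding transcript, where QuantSeq reads fall, 17.1% of the 50-base windows of H2-D1 and 0.797% of those of H2-K1 occur in another gene, against 0% for the other 8 genes.

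The sequences before the annotated starts are shown because genes of this pathway fell together with SAM. H2-K1 and H2-D1 also carry elements that class I promoters are known for. B2m carries only some of these, without a match to the NF-κB-like letters given below. Windows of 250 bases before to 50 after the start were taken from RefSeq (GRCm38.p6) for 8 of the 10 genes; Tap2 and Nlrc5 were not matched. Sequences are printed 5′ to 3′ in transcript direction, and capitals mark a match on either strand to any of 5 motifs: an IRF element (AANNGAAA), an NF-κB-like site (GGNNTTCCC), a GAS element bound by STAT factors (TTCNNNGAA), the core of a cAMP response element (TGACG) and a CCAAT box (CCAAT). For H2-K1 (chr17:34000348-34000597, minus), a classical heavy chain, and B2m (chr2:122147437-122147686, plus), its light chain, all 250 bases before the start are shown. For the others a stretch of at most 30 bases around a match is shown, because GENCODE lists longer transcripts whose 5′ UTRs cover 250 of the 250 bases in H2-D1 and Psmb8, and 5′ UTRs of Psmb9 on the opposite strand and of Tap1 cover 246 in Tap1. H2-D1 (chr17:35262924-35262951, plus) is shown from its second NF-κB-like match to its IRF element, for comparison with the same elements of H2-K1. Tap1 (chr17:34187458-34187487, plus) is shown around the cAMP response element core that it shares with Psmb9, and Psmb8 (chr17:34198088-34198117, plus) around its GAS match.
H2-K1: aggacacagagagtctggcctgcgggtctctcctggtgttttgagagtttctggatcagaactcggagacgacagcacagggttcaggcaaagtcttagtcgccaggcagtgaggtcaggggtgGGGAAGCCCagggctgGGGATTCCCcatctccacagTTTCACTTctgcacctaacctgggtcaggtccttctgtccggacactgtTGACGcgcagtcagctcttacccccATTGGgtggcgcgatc
H2-D1: GGGATTCCCcatctcctcagTTTCACTT
B2m: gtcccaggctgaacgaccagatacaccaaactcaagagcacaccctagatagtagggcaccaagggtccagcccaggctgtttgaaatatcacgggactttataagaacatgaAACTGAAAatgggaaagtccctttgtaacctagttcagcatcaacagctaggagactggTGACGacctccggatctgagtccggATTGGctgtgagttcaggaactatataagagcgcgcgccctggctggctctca
Tap1: cccagagacaggTGACGacagagggtcctg
Psmb8: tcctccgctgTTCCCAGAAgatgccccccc

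H2-K1 and H2-D1 each held an opposite-strand and a same-strand NF-κB-like match, then an IRF element, a cAMP response element core and 2 CCAAT boxes. Their windows, set against each other without gaps at an offset of 60 bases, were identical at 176 of 240 bases (73.3%). In H2-K1 the IRF element began 90 bases before the start listed by RefSeq, the first of 2 windows in the table. In H2-D1 it began 150 bases before. The second CCAAT box began 8 bases after the listed start in H2-K1 and 53 before it in H2-D1. These distances depend on which start is listed. B2m had an IRF element 137 bases before its start, 2 cAMP response element cores, the second of them 44 bases after the start, and a CCAAT box. The starts of Tap1 and Psmb9 lie 226 bases apart and point away from each other, so their windows share 275 bases, with a single cAMP response element core and a single CCAAT box. Psmb8 had a GAS match 97 bases before its start, Tapbp had 2 CCAAT boxes, and Psmb10 had none of these letters in its window. Of all 32851 mouse windows of this length, 23.9% hold the IRF element, 5.82% the NF-κB-like site, 8.3% the GAS element, 20.8% the cAMP response element core and 37.4% the CCAAT box. A match describes letters and is not a measured binding site.

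**Figure D1:**
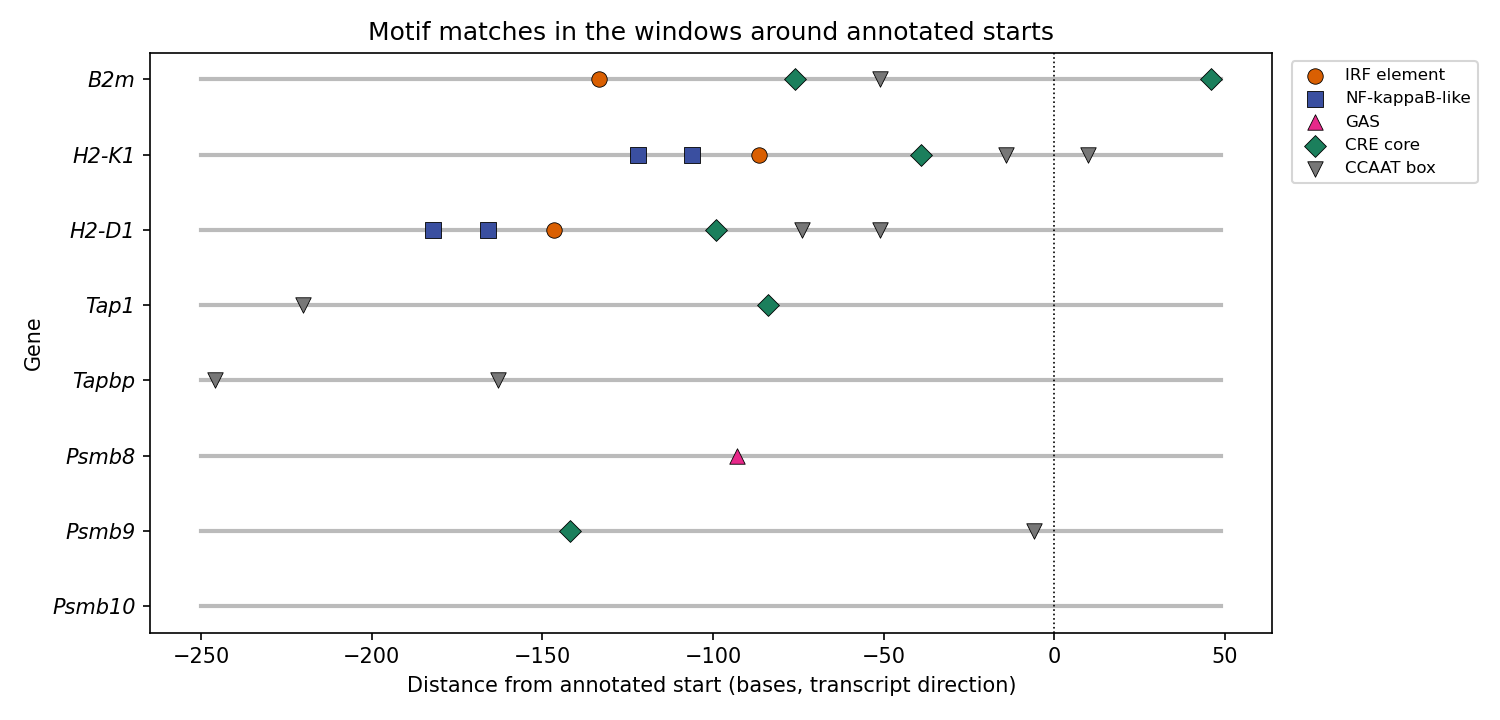
Positions of motif matches in the 8 matched windows, as distance in bases from the annotated start in transcript direction; each symbol is a match and each grey line a 300-base window. H2-K1 and H2-D1 show the same series of elements, shifted by 60 bases except for the second CCAAT box, and Psmb10 shows none. That box lies after the annotated start in H2-K1 and before it in H2-D1.

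The libraries held 4171170 to 7717626 reads assigned to genes. Reads outside genes made up 22.8% to 28.2% of a library's reads; NAM replicate 3 (23.9%) and TGFβ with NAM replicate 1 (22.8%) had the lowest shares and were left out together in an alternative. Replicates 2 and 3 of SAM carry DIM. and LUN. as treatment tags, against their titles, so the calls of genes and the ratios that use the SAM group are also given without both. The 6 SAM-treated libraries carry a separate block of library numbers, so preparation and SAM treatment cannot be told apart, whereas TGFβ was compared within that block. Of the 12 tubular markers, Epcam had no reads in any library and Cdh1 at most 7 in a group, while Aqp1, a proximal tubule water channel, ranged from 986 to 1084 CPM in control and Cdh16 from 156 to 188. CPM are read counts scaled to library size with trimmed-mean (TMM) factors. Of 11 immune markers, Cd3e, Itgam, Adgre1 and Tyrobp had no reads in any group, and Csf1r and Cd68 made up most of the summed level.

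TGFβ raised part of the pathway. Against control, 4 of the 10 genes rose and none fell at an adjusted p under 0.05, when 9.7% of all tested genes rose and 9.74% fell. The 4 were Nlrc5, Tap1, Psmb10 and Psmb8. H2-K1, H2-D1 and B2m did not pass. The median log2 change of the 10 genes was 0.24, against 0.01 over all tested genes. For 6 genes all 3 TGFβ libraries lay above all 3 control libraries, which 18.2% of all tested genes did. With NAM present in both arms, TGFβ raised 3 of the 10, Tap1, Nlrc5 and Psmb8 (background 10.9% higher). With SAM in both arms, TGFβ raised B2m and Nlrc5, a count near the background (14.2% higher), and lowered H2-K1, Tapbp and Psmb9 (background 14.2% lower). Without SAM replicates 2 and 3, H2-K1 alone was called there (-0.36, adjusted p = 0.0202). In the comparison with control, leaving out any control library, TGFβ replicate 1 or TGFβ replicate 3 ended the call of Psmb8, with adjusted p of 0.0568 to 0.096. That of Psmb10 ended without any control library or TGFβ replicate 1 or 2 (0.0627 to 0.167), with library totals (0.0616) and without the low-count filter (0.0878). With NAM in both arms, the call of Psmb8 ended without NAM replicate 1 or 3 or any TGFβ with NAM library (0.0558 to 0.15), with library totals (0.146), without the low-count filter (0.0912) and with only the groups compared (0.068).

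SAM lowered most of the pathway. Against control, 7 of the 10 genes fell and none rose: B2m, H2-K1, H2-D1, Tapbp, Psmb8, Psmb9 and Psmb10. Of all tested genes, 6.79% fell. The libraries of the same 7 genes did not overlap between SAM and control, which held in this direction for 16.2% of all tested genes. The median log2 change of the 10 was -0.38, against 0.00 over all genes. With SAM replicates 2 and 3 left out, SAM had 1 library, assumed to vary like the other groups. The 7 genes stayed below control, and 2 passed the test: Psmb8 (log2 change -0.66, adjusted p = 0.00632) and H2-D1 (-0.48, adjusted p = 0.0132). H2-K1 lost its call without control replicate 1 (adjusted p = 0.0657) or SAM replicate 3 (0.0662), and Psmb9 without control replicate 1 or 3 or SAM replicate 1 or 3 (0.0505 to 0.0767).

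The fall with SAM was present under TGFβ as well. TGFβ with SAM against TGFβ alone gave 7 of 10 genes lower and none higher: H2-K1, H2-D1, Tap1, Tapbp, Psmb8, Psmb9 and Psmb10. Of all tested genes, 4.25% fell in this comparison. The libraries of 9 genes lay wholly below those of TGFβ alone, all but Tap2, and 11.9% of all tested genes did so. The median log2 change was -0.56, against -0.01 over all genes. This comparison does not use the SAM libraries with conflicting tags. Tap1 lost its call without TGFβ replicate 1 (adjusted p = 0.076) or TGFβ with SAM replicate 2 (0.136). Against untreated control, TGFβ with SAM left 6 genes lower, the 2 heavy chains, Tapbp and the 3 immunoproteasome subunits (background 14.1% lower). No library left out changed that number.

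NAM moved none of the 10 genes past the test. Against control the count was 0 of 10, and 0.00742% of all tested genes changed. TGFβ with NAM against TGFβ alone also gave 0 of 10 (background 0.0817%). At an unadjusted p under 0.05, edgeR found 1 of the 10 against control, Tap2, and 722 of all 13469 tested genes. Under TGFβ it found 1 of the 10, Psmb10, and 932 of all tested genes. DESeq2 called 0 of the 10 in both comparisons. The counts stayed 0 without NAM replicate 3 and TGFβ with NAM replicate 1. Direct comparison of the 2 supplements gave 7 genes lower with SAM than with NAM (background 7.83%) and 1 higher, Tap2 (background 6.56%). Without SAM replicates 2 and 3, 5 genes were lower and none higher. Under TGFβ, 8 genes were lower with SAM than with NAM (background 4.47%), all but Tap2 and Nlrc5. B2m and Tap1 lost that call without TGFβ with SAM replicate 2 (adjusted p = 0.067 and 0.0789).

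**Figure D2:**
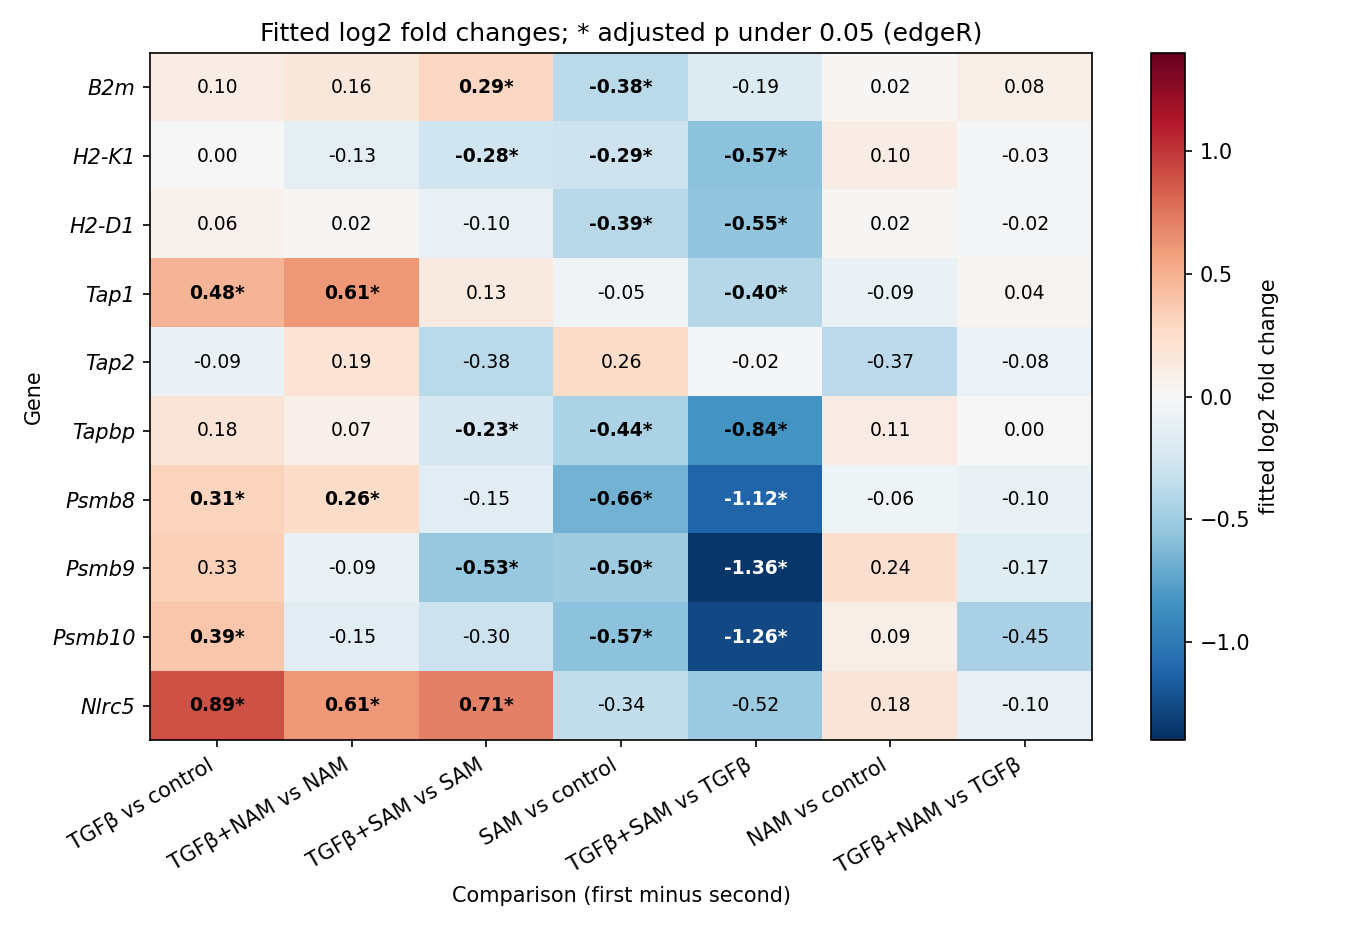
Fitted log2 fold changes of the 10 genes (rows) in 7 comparisons (columns, first group minus second); colour and number give the change and a star an adjusted p under 0.05 in edgeR. The first column carries positive stars at Tap1, Psmb8, Psmb10 and Nlrc5, and the second at Tap1, Psmb8 and Nlrc5. The third carries positive stars at B2m and Nlrc5 and negative ones at H2-K1, Tapbp and Psmb9. The 2 columns of SAM effects carry 7 negative stars each, and the 2 columns of NAM effects carry none.

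The light chain and the heavy chains did not pass the test with TGFβ alone. B2m was at 2931, 2703 and 2554 CPM in control and at 3069, 2910 and 2780 with TGFβ. In SAM its level was 2159, 2042 and 2085 CPM, and in TGFβ with SAM 2541, 2435 and 2687. SAM libraries were thus below every control library, while those with TGFβ and SAM reached into the control range. The fitted log2 change with SAM was -0.38 ± 0.07 (SE, adjusted p = 0.000137). TGFβ raised B2m in the presence of SAM by 0.29 ± 0.07 (adjusted p = 0.00153) but did not pass without it (0.10 ± 0.07, adjusted p = 0.385). The difference between these 2 TGFβ effects was 0.19 ± 0.10 and did not pass either (adjusted p = 0.518). Under TGFβ, SAM gave -0.19 ± 0.07, which edgeR did not call (adjusted p = 0.086) and DESeq2 did (0.0387).

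H2-K1, a classical heavy chain, had 1087, 977.3 and 1016 CPM in control and 998.7, 1030 and 1046 with TGFβ, which overlap throughout. It had 888.7, 837.6 and 790.2 CPM with SAM and 734.2, 672.2 and 669.3 with TGFβ and SAM. Every SAM-treated library lay below every library without SAM, and the combination lay below SAM alone. TGFβ in the presence of SAM gave -0.28 ± 0.08 (adjusted p = 0.0047), which ended without SAM replicate 1 (0.0514). The log2 changes were -0.29 ± 0.08 for SAM against control (adjusted p = 0.0079) and -0.57 ± 0.08 under TGFβ (adjusted p = 9.23e-07). H2-D1, the other classical heavy chain measured, had 738.8, 710.8 and 682.4 CPM in control and 745.6, 758.4 and 720.1 with TGFβ. Its levels were 511.8, 580.8 and 537.1 CPM with SAM and 515.8, 474.0 and 531.2 with both. Here the SAM and combination libraries overlapped each other and stayed below all others. SAM changed it by -0.39 ± 0.08 against control (adjusted p = 0.000464) and by -0.55 ± 0.08 under TGFβ (adjusted p = 2.29e-06). The ratio of H2-K1 to H2-D1 counts within a library averaged 1.44 in control, 1.38 in TGFβ, 1.55 in SAM and 1.37 in the combination, with overlapping libraries. SAM replicate 1 alone had 1.74, above the control range of 1.38 to 1.49.

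Of the peptide pump, Tap1 was called in 4 comparisons and Tap2 in 1. Tap1 had 73.2, 71.4 and 81.4 CPM in control and 110.2, 106.1 and 97.8 with TGFβ. With TGFβ and NAM it had 100.2, 111.2 and 111.4 CPM, and with TGFβ and SAM 81.0, 68.5 and 88.1. The TGFβ libraries without SAM stood apart above all others, and those with SAM overlapped control. TGFβ raised Tap1 by 0.48 ± 0.11 on the log2 scale (adjusted p = 0.000855), and by 0.61 ± 0.11 in the presence of NAM (adjusted p = 2.6e-05). SAM alone gave 72.6, 72.4 and 72.8 CPM, with a log2 change of -0.05 ± 0.11 (adjusted p = 0.822). Under TGFβ, Tap1 was lower with SAM (log2 change -0.40 ± 0.11, adjusted p = 0.0141). Tap2 varied more between libraries of a group, with coefficients of variation of 7.86% in control to 33.9% in TGFβ with NAM. It had 76.4, 89.2 and 85.3 CPM in control, 77.7, 93.3 and 62.7 with TGFβ and 108.0, 73.9 and 119.7 with SAM, and these groups overlap. Its only call was SAM against NAM, 0.63 ± 0.18 (adjusted p = 0.0104), where the libraries overlap as well. That call ended without NAM replicate 3 (adjusted p = 0.0878), SAM replicate 1 (0.0557) or SAM replicate 3 (0.102), and in DESeq2 (0.0813). The ratio of Tap1 to Tap2 counts was 0.904 ± 0.090 in control and 1.37 ± 0.22 with TGFβ (SD, n = 3), without overlap; the exact two-sided permutation p was 0.1, the smallest that 3 against 3 libraries allow.

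Tapbp, the tether between the pump and class I, fell with SAM as the heavy chains did. It had 311.9, 290.7 and 303.9 CPM in control, 347.8, 354.9 and 320.6 with TGFβ, 229.8, 203.3 and 236.4 with SAM and 184.3, 199.2 and 187.6 with both. All TGFβ libraries were above control, but the log2 change of 0.18 ± 0.09 did not pass (adjusted p = 0.168). SAM lowered Tapbp against control (log2 change -0.44 ± 0.09, adjusted p = 0.000466) and under TGFβ (-0.84 ± 0.09, adjusted p = 2.25e-09). In the presence of SAM, TGFβ gave a log2 change of -0.23 ± 0.09 (adjusted p = 0.048), a call that ended without SAM replicate 1 or 3 or any of the TGFβ with SAM libraries (0.0542 to 0.183), with other scaling (0.0558 and 0.0603) and without the low-count filter (0.0829).

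The immunoproteasome subunits had the largest SAM effects among the 10 genes under TGFβ. Psmb8 (LMP7) had 148.5, 150.1 and 149.8 CPM in control and 195.3, 171.9 and 189.7 with TGFβ. It fell to 94.6, 100.0 and 89.3 CPM with SAM and to 85.8, 72.1 and 98.7 with both. The SAM-treated libraries, with or without TGFβ, lay below every other library. TGFβ raised Psmb8 by 0.31 ± 0.10 (adjusted p = 0.0191). SAM lowered it against control (log2 change -0.66 ± 0.10, adjusted p = 6.42e-06) and under TGFβ (-1.12 ± 0.10, adjusted p = 5.23e-11).

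Psmb9 (LMP2), which shares its promoter stretch with Tap1, had 54.8, 51.8 and 56.8 CPM in control and 62.0, 80.0 and 62.7 with TGFβ. In SAM it had 35.4, 43.5 and 36.2 CPM and in TGFβ with SAM 23.2, 27.6 and 28.9. The TGFβ libraries lay above control without passing the test (0.33 ± 0.14, adjusted p = 0.0991, and 0.0438 with only the groups compared), and the combination lay below SAM alone. SAM lowered Psmb9 against control (log2 change -0.50 ± 0.14, adjusted p = 0.0152) and under TGFβ (-1.36 ± 0.15, adjusted p = 5.54e-09). In the presence of SAM, TGFβ itself lowered Psmb9 (-0.53 ± 0.15, adjusted p = 0.00648), a call that ended without SAM replicate 2 (0.0579). The difference between the TGFβ effect with SAM and without it was -0.86 ± 0.21 (adjusted p = 0.0179), the 1 call among the 10 genes in that test, where 0.631% of all tested genes were called lower. This call ended without control replicate 2 (adjusted p = 0.0629), TGFβ replicate 2 (0.108), SAM replicate 2 (0.0853) or TGFβ with SAM replicate 1 (0.0739), and without SAM replicates 2 and 3 together (0.295). The same test for NAM called 0 of the 10 genes in edgeR and in DESeq2 (background 0%; 2 of the 10 and 462 of all genes at an unadjusted p under 0.05).

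Psmb10 (MECL-1) had 45.8, 48.9 and 47.0 CPM in control and 61.7, 67.7 and 56.0 with TGFβ. With TGFβ and NAM it had 50.5, 45.0 and 40.4 CPM, below all TGFβ libraries, but the log2 difference of -0.45 ± 0.14 did not pass (adjusted p = 0.319). SAM gave 34.0, 29.2 and 32.2 CPM, and SAM with TGFβ 22.2, 26.4 and 28.9, so both SAM groups lay below all others and below 35 CPM. TGFβ raised Psmb10 by 0.39 ± 0.13 (adjusted p = 0.0324), and SAM lowered it both against control (log2 change -0.57 ± 0.14, adjusted p = 0.00397) and under TGFβ (-1.26 ± 0.14, adjusted p = 9.59e-09). For Psmb10 the difference between the TGFβ effects with and without SAM was -0.69 ± 0.20 and missed the threshold in edgeR (adjusted p = 0.0656). DESeq2 called it for Psmb10 (0.021), Tapbp (0.039) and Psmb8 (0.0493).

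**Figure D3:**
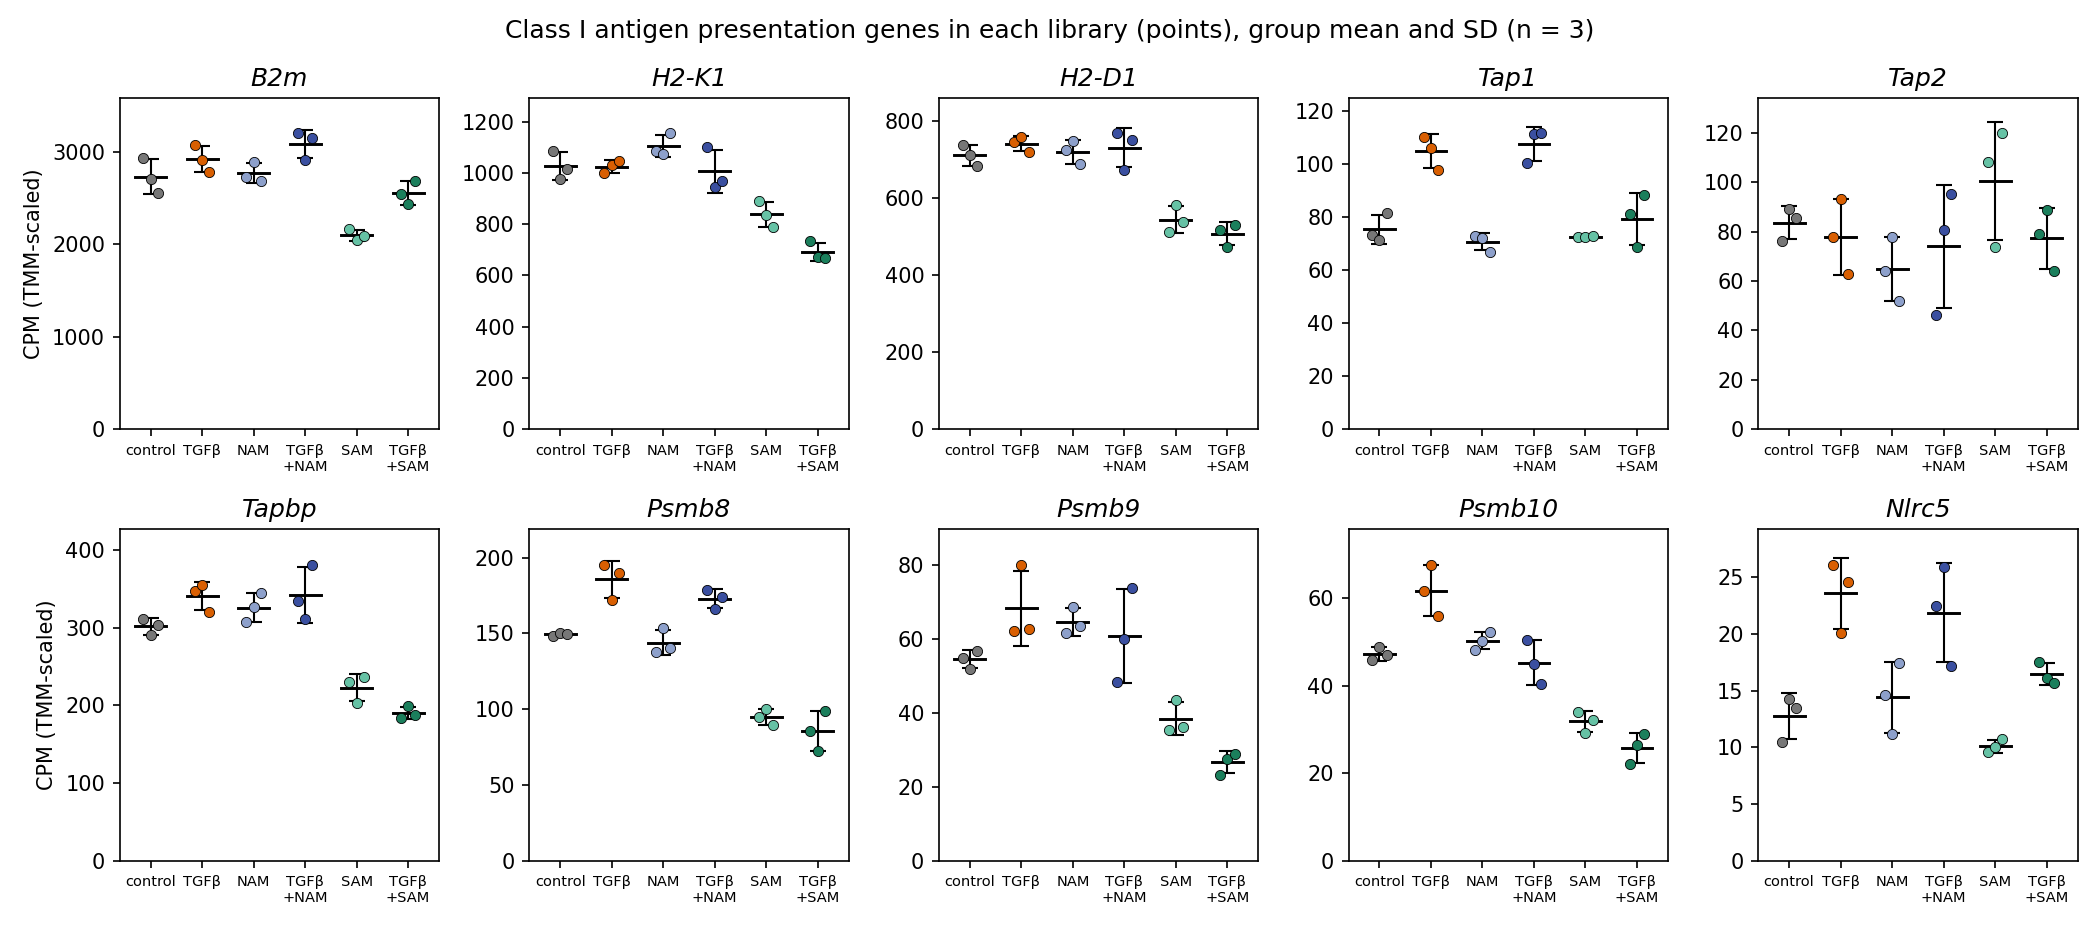
CPM (TMM-scaled) of each of the 10 genes by group; points are libraries, horizontal bars group means and whiskers SD (n = 3), and every axis starts at 0. The 2 rightmost groups, both with SAM, are lowest in H2-K1, H2-D1, Tapbp, Psmb8, Psmb9 and Psmb10, and Nlrc5 and Tap1 have their highest means in the groups with TGFβ and no SAM.

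Nlrc5, the class I transactivator, was read at low depth, with 189 to 385 reads per group. It had 10.4, 14.3 and 13.5 CPM in control, 26.1, 20.1 and 24.6 with TGFβ and 22.5, 26.0 and 17.2 with TGFβ and NAM. With SAM it had 9.57, 10.0 and 10.7 CPM, and 17.5, 16.2 and 15.7 with TGFβ and SAM. TGFβ raised it in all 3 settings: by 0.89 ± 0.22 against control (adjusted p = 0.00214), by 0.61 ± 0.21 with NAM present (adjusted p = 0.0352) and by 0.71 ± 0.23 with SAM present (adjusted p = 0.015). The call with NAM ended without NAM replicate 1 or 2 or TGFβ with NAM replicate 1 or 2 (adjusted p = 0.0723 to 0.199), with library totals (0.0652), without the low-count filter (0.0759) and with only the groups compared (0.0685), and the call with SAM ended without SAM replicates 2 and 3 (0.109). SAM did not change Nlrc5 past the test, either alone (-0.34 ± 0.23, adjusted p = 0.387) or under TGFβ (-0.52 ± 0.21, adjusted p = 0.148). Under TGFβ all 3 libraries with SAM were nevertheless below the 3 without it.

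Ratios of counts within a library remove its depth and scaling. The ratio of Tap1 to Psmb9, the genes that share a promoter stretch, was 1.38 ± 0.05 in control, 1.55 ± 0.23 with TGFβ, 1.91 ± 0.21 with SAM and 3.01 ± 0.50 with TGFβ and SAM (SD, n = 3). The SAM libraries lay above control and the combination above TGFβ alone, both with an exact two-sided permutation p of 0.1, the smallest possible, and a Benjamini-Hochberg value of 0.225 over 18 ratio tests. Immunoproteasome subunits were also set against the constitutive subunits they replace. Psmb8 to Psmb5 stood at 4.12 ± 0.08 in control, 4.74 ± 0.42 with TGFβ, 2.72 ± 0.43 with SAM and 2.25 ± 0.47 with both. The combination was below TGFβ alone without overlap for Psmb8 to Psmb5, for Psmb9 to Psmb6 (0.477 ± 0.103 against 0.196 ± 0.024) and for Psmb10 to Psmb7 (0.521 ± 0.115 against 0.262 ± 0.032). SAM alone was below control without overlap only in the first of these 3 ratios. SAM replicate 1, the SAM library whose tag matches its title, had 2.78 for Psmb8 to Psmb5, 0.257 for Psmb9 to Psmb6 and 2.05 for Tap1 to Psmb9, each outside the control range, and 0.444 for Psmb10 to Psmb7, inside it. Psmb5, Psmb6 and Psmb7 themselves were not called in any of the 10 comparisons or the 2 tests of a difference between TGFβ effects. With 6.79% and 4.25% of all tested genes lower in the 2 SAM comparisons, no call among 3 genes is near the background. Their log2 changes were -0.323 to -0.0496 with SAM against control and -0.295 to -0.0165 under TGFβ. In each, 1 of the 3 had libraries wholly lower (16.2% and 11.9% of all tested genes).

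**Figure D4:**
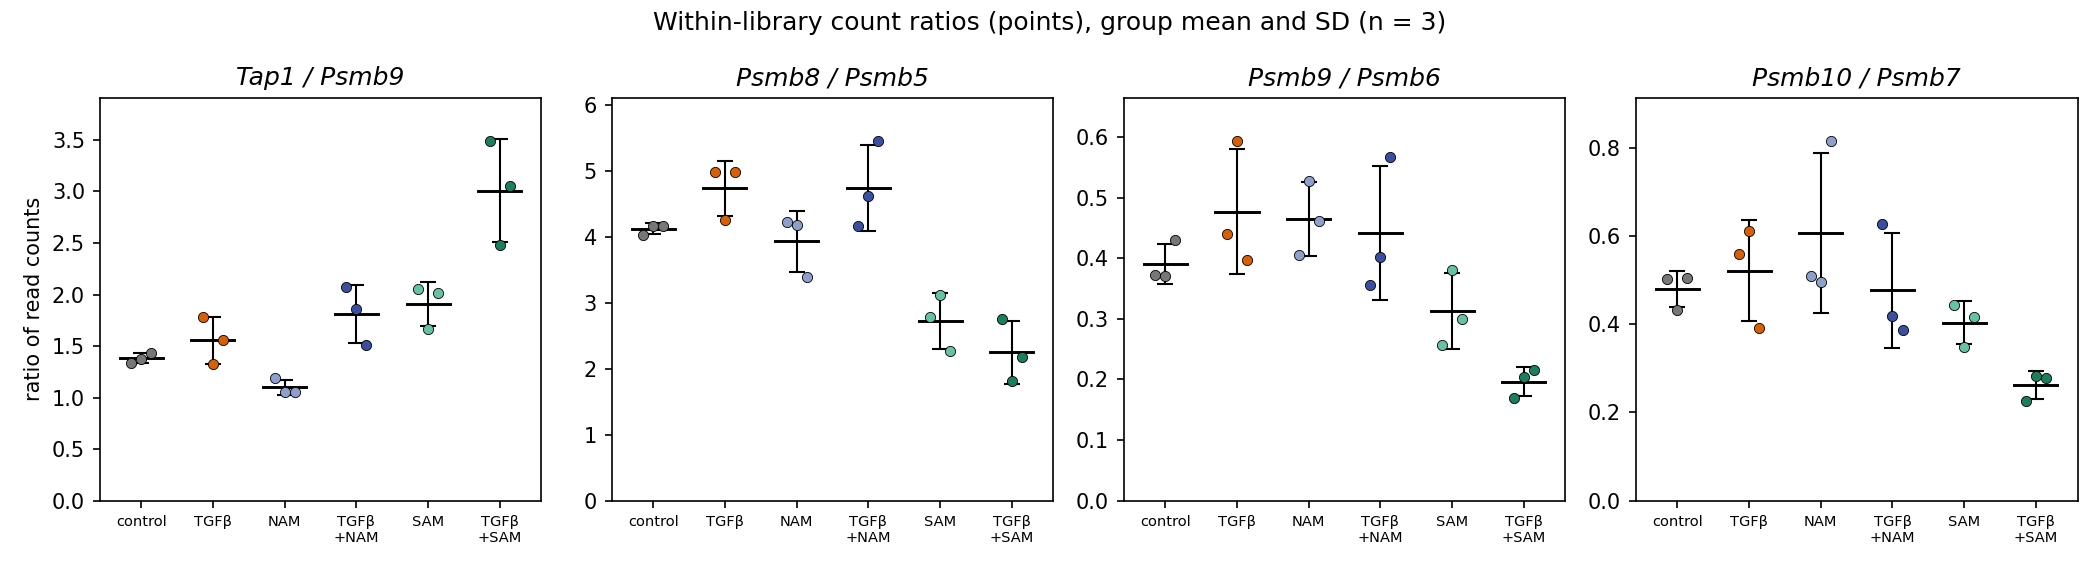
Ratios of read counts within each library for Tap1 to Psmb9 and for the 3 immunoproteasome subunits to their constitutive counterparts; points are libraries, bars means and whiskers SD (n = 3). Tap1 to Psmb9 is highest in TGFβ with SAM (mean 3.01), and the 3 proteasome ratios are lowest there (2.25, 0.196 and 0.262).

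Other class I heavy chains were listed as well. Of 19, 18 were in the table and 12 passed the filter; TGFβ raised 2 (background 9.7%), SAM lowered 2 (6.79%) and raised 1 (5.02%), and SAM under TGFβ lowered 3 (4.25%). H2-T22, a nonclassical chain, had 29.9 to 38.0 CPM in control, 58.2 to 72.1 with TGFβ, 21.2 to 23.5 with SAM and 22.4 to 29.9 with both, so the TGFβ libraries stood above all of these. It rose by 0.90 ± 0.14 with TGFβ (adjusted p = 5.5e-06) and was lower with SAM under TGFβ (log2 change -1.28 ± 0.15, adjusted p = 2.23e-08). H2-Q7 rose by 0.67 ± 0.14 with TGFβ (adjusted p = 0.00028). These genes are members of near-identical families, so the division of reads among them is uncertain. SAM also raised Fcgrt, the neonatal Fc receptor chain, by 0.41 ± 0.13 (adjusted p = 0.028, and 0.471 without SAM replicates 2 and 3). The second gene that SAM lowered, H2-M2, rested on 31 reads in control against 1 in SAM (adjusted p = 0.254 without those 2 libraries).

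In the loading and trimming list of 11 genes, TGFβ raised 1 (background 9.7%), SAM lowered 2 (6.79%), and under TGFβ SAM raised 1 (3.07%) and lowered 2 (4.25%). The count with TGFβ is near the background. TGFβ raised Erap1, the aminopeptidase that trims peptides in the endoplasmic reticulum, by 0.63 ± 0.21 (adjusted p = 0.0324). SAM lowered Tapbpl, a tapasin relative that edits peptides, alone (log2 change -0.59 ± 0.18, adjusted p = 0.0253, and 0.335 without SAM replicates 2 and 3) and under TGFβ (-0.56 ± 0.18, adjusted p = 0.0477). The chaperone Calr was lower with SAM under TGFβ (-0.24 ± 0.08, adjusted p = 0.0434). Of 7 genes for proteasome activators and assembly, SAM lowered 2 in each comparison (background 6.79% and 4.25%). They included Psme1, a subunit of the activator that interferon-γ induces, at -0.47 ± 0.09 alone (adjusted p = 0.000333) and -0.56 ± 0.09 under TGFβ (adjusted p = 4.63e-05). Psme1 had 149 to 154 CPM in control, 101 to 117 with SAM and 95.7 to 105 with both, so SAM libraries lay below control throughout. Of 11 other core proteasome subunits, SAM lowered 5 against control and 2 under TGFβ (the same backgrounds). Psmb4 had the smallest p of these (log2 change -0.68 ± 0.10 against control, adjusted p = 2.3e-06), so lower proteasome transcripts with SAM were not limited to the immunoproteasome subunits. Without SAM replicates 2 and 3, SAM against control lowered 2.18% of all tested genes, and of these lists it lowered Psme1 (-0.47, adjusted p = 0.0452) and Psmb4 (-0.82, adjusted p = 0.000327) and no other gene.

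Among 21 regulators of class I transcription, TGFβ raised 7 and lowered none (background 9.7% higher), SAM lowered 7 and raised none (6.79% lower), and SAM under TGFβ lowered 8 and raised none (4.25% lower). Without SAM replicates 2 and 3, SAM against control lowered 4 (2.18%), among them Irf7 (-2.97, adjusted p = 2.54e-07) and Usp18 (-1.52, adjusted p = 0.00497). Irf7, an interferon-induced IRF factor, changed by 1.74 ± 0.18, -2.42 ± 0.23 and -3.14 ± 0.20 on the log2 scale with TGFβ, with SAM and with SAM under TGFβ, and Usp18, a brake on interferon receptor signalling, by 2.47 ± 0.19, -1.77 ± 0.24 and -2.93 ± 0.20. Irf1, a known inducer of class I genes, did not pass with TGFβ (0.10 ± 0.11, adjusted p = 0.609) or with SAM (-0.20 ± 0.11, adjusted p = 0.292), and was lower with SAM under TGFβ (-0.45 ± 0.11, adjusted p = 0.00974). The difference between the TGFβ effects with and without SAM passed for Stat2 (-1.02 ± 0.24, adjusted p = 0.0138), and not without SAM replicates 2 and 3 (0.0612). Of 7 receptor and kinase genes of interferon signalling, TGFβ raised 1 (background 9.7% higher), Ifnar2 (0.35 ± 0.12, adjusted p = 0.0316). None of the 7 was called in either SAM comparison (background 6.79% and 4.25% lower, 5.02% and 3.07% higher). These counts are near the background.

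The interferon genes themselves were hardly read. None of 7 passed the filter, and only Ifnb1 had reads, 17 over all 18 libraries, of which 11 were in TGFβ, 3 in NAM, 2 in TGFβ with NAM and 1 in TGFβ with SAM. Ifng had 0 reads over all 18 libraries, which allows a level of up to 0.027 CPM, a limit set at 3 counts that covers counting error only.

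The 10 genes varied together over the 18 libraries to different degrees. The log2 CPM of each gene was set against the mean of the other 9, each first standardized over the libraries. Pearson's r was 0.962 for Psmb8, 0.937 for Tapbp and 0.907 for H2-D1, and 0.562 for Tap1, 0.465 for Nlrc5 and -0.342 for Tap2. The 5 other genes most like the standardized mean of all 10, among genes with a mean of at least 5 CPM, were Ifi203 (r = 0.976), Zranb2 (0.945), Gm4841 (0.942), Tgm2 (0.942) and Slfn2 (0.937). Libraries of a group share their treatment and were not independent points, so these values only describe the data.

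Markers of cell types moved too. Of the 10 tubular markers tested, TGFβ lowered 6 (9.74% of all tested genes) and raised 2 (9.7%). SAM lowered 2 (6.79%) and raised 1 (5.02%), and SAM under TGFβ lowered 1 (4.25%). Aqp1 had 81.8 to 123 CPM with TGFβ, far below its control level, and Cdh16 51.8 to 58.0, whereas Krt8, a simple epithelial keratin, was at 92.3 to 103 CPM in control and 182 to 195 with TGFβ. The summed level of the 12 tubular markers was 2673 to 2741 CPM in control, 1917 to 2092 with TGFβ, 2855 to 2947 with SAM and 2066 to 2228 with both. That of the 5 fibroblast markers, nearly all Col1a1, a collagen gene that TGFβ is known to induce, was 3.29 to 7.09 CPM in control, 109 to 114 with TGFβ, 1.22 to 2.03 with SAM and 37.8 to 50.5 with both. It was thus higher with TGFβ and lower with SAM in both settings, and Lum had no reads. The summed level of the 11 immune markers was 101 to 103 CPM in control, 58.7 to 74.5 with TGFβ, 114 to 133 with SAM and 80.5 to 96.6 with both, so it was higher with SAM in both settings. Cd68 passed the test in both (0.96 ± 0.25 and 0.98 ± 0.28), though not against control without SAM replicates 2 and 3 (adjusted p = 0.182). The share of reads outside genes was 27.9% to 28.2% in SAM and 26% to 27% in control, and 25.9% to 26.6% in TGFβ with SAM and 24.9% to 25.9% in TGFβ. The part of these in the class I results was not tested. In bulk libraries fewer expressing cells and less RNA per cell cannot be told apart.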

How the data were processed

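Polyadenylated RNA of 18 im-TEC samples was measured as QuantSeq reads. The deposited table holds raw counts per gene and library, made with STAR and HTSeq (versions not stated), per the submitters' processing notes. The notes name GRCh38, whereas the identifiers are mouse, so the build is not settled. Groups came from the titles.

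Counts were tested with edgeR 4.0.16 (R 4.3.3): TMM scaling, filterByExpr with a minimum count of 10, and 1 quasi-likelihood fit of all 18 libraries with a term per group. In each of 10 comparisons and 2 interactions (the TGFβ effect with a supplement minus that without), two-sided p-values were adjusted by Benjamini-Hochberg over 13469 genes, and a call is an adjusted p under 0.05. The script was tested on simulated data. Ratios used exact permutation tests (scipy 1.17.1).

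The 10 genes and all lists were chosen with earlier results of these data known. Up to 4 genes with the smallest p were eligible for naming per list. Irf1 and Cd274 were followed. Alternatives were DESeq2 1.42.0, other scaling, no filter, a replicate block, fewer groups and left-out libraries.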

Additional observations from a re-analysis of the deposited data

Results flagged for a closer look

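For Psmb9, the TGFβ effect in the presence of SAM minus that in its absence was -0.86 on the log2 scale (adjusted p = 0.0179, edgeR). This call ended without control replicate 2 (adjusted p = 0.0629), TGFβ replicate 2 (0.108), SAM replicate 2 (0.0853) or TGFβ with SAM replicate 1 (0.0739). Without SAM replicates 2 and 3, which leaves 1 SAM library, the difference was -0.73. Psmb9 rose from a mean of 54.5 to 68.2 CPM with TGFβ alone, a change that did not pass, and fell from 38.4 to 26.6 CPM with TGFβ in the presence of SAM.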

How the results depend on the processing

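Over 9 kinds of alternative, 1720 values of single genes were recomputed. Of these, 1633 kept their side of the threshold, 72 lost the call, 15 gained it and 0 called values changed sign; of the 1633, 33 that were not called changed sign and 1600 kept their direction. Of the 10 genes, the number called for the difference between the TGFβ effects with and without SAM was 4 in DESeq2, 0 without SAM replicates 2 and 3, and 0 to 3 with single libraries left out. For TGFβ with NAM against NAM it was 1 with library totals, 1 without the low-count filter, 1 with only the groups compared, and 1 to 2 with single libraries left out. Without SAM replicates 2 and 3 it was 2 for SAM against control, 1 for TGFβ with SAM against SAM and 5 for SAM against NAM. With single libraries left out it was 2 to 3 for TGFβ against control, 5 to 7 for SAM against control, 6 to 8 for TGFβ with SAM against TGFβ, 3 to 5 for TGFβ with SAM against SAM, 6 for TGFβ with SAM against control, 7 to 8 for SAM against NAM, 6 to 8 for TGFβ with SAM against TGFβ with NAM and 0 for the 3 tests of NAM. The causes were not tested. Whether replicate numbers pair the libraries was not settled. For this check the group mean of each gene in log2 CPM was first subtracted, so whole profiles were not compared. The remaining deviations of same-numbered libraries of different groups correlated between -0.0997 and 0.0696 (median 0.0042). The deviations of libraries with different numbers correlated between -0.127 and 0.168 (median -0.0012). By these deviations, 9 of 18 libraries correlated best with their own number. With the replicate block, 118 of 120 values kept their call; Psmb8 in TGFβ with NAM against NAM and Tapbp in TGFβ with SAM against SAM lost theirs (adjusted p = 0.0555 in each). Depth limits Nlrc5 most among the 10 genes.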

Other observations

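MHC class II genes were called in other directions than class I in some comparisons and in the same direction in others. Of 7 that passed the filter, TGFβ lowered 4 and raised none (9.74% and 9.7% of all tested genes), where 4 of the 10 class I genes rose. TGFβ with SAM against control gave 5 class II genes lower and 1 higher, and 6 class I genes lower. Of all 13469 tested genes, 3579 were called in either direction there, and 14.1% were lower. Against SAM it gave 5 class II and 3 class I genes lower (14.2% lower). In that comparison 2 class I genes, B2m and Nlrc5, were higher, a count near the share over all tested genes (14.2% higher). Cd74, the invariant chain that guards the class II groove, had 80.8 to 84.9 CPM in control and 13.0 to 20.6 with TGFβ (log2 change -2.43 ± 0.17, adjusted p = 1.14e-14). H2-Aa, H2-Eb1 and H2-Ab1, class II chains, changed by -3.12 ± 0.52, -1.02 ± 0.11 and -0.71 ± 0.25. The change of H2-Aa rested on 180 reads in control against 17 with TGFβ. SAM lowered 7 class I genes against control and 7 under TGFβ, where 6.79% and 4.25% of all tested genes fell. Of the 7 class II genes it raised 1, H2-Eb1, in each comparison, where 5.02% and 3.07% of all tested genes rose. The change was 1.21 ± 0.10 against control (adjusted p = 1.48e-11) and 1.16 ± 0.11 under TGFβ (adjusted p = 1.8e-10). Without SAM replicates 2 and 3 the first was 1.13 (adjusted p = 1.26e-06). The contrast between the classes was noticed in the data and was not tested as such.

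Cd274, which encodes the checkpoint ligand PD-L1, had 48.98 to 53.1 CPM in control, 41.8 to 63.4 with TGFβ, 38.9 to 44.1 with SAM and 10.4 to 26.4 with TGFβ and SAM. The combination lay below all other groups named here. SAM under TGFβ lowered it (log2 change -1.34 ± 0.19, adjusted p = 2.15e-06), and the difference between the TGFβ effects with and without SAM was -1.07 ± 0.26 (adjusted p = 0.0191, and 0.237 without SAM replicates 2 and 3). Among 8 housekeeping genes, TGFβ raised 3 (9.7% of all tested genes) and lowered 1 (9.74%). SAM lowered 2 (6.79%), Actb and Hprt, and SAM under TGFβ changed none. Without SAM replicates 2 and 3, which leaves 1 SAM library, the log2 changes of Actb and Hprt were -0.40 and -0.49.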
